A study of Mus musculus with 4 samples.

Results

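The genes described here encode the proteins of the mitochondrial ribosome, the members being all genes whose mouse symbol begins with Mrpl or Mrps followed by a number. Of 20280 gene symbols that the array probes could be given, 78 met this rule, and 77 of them were measured above background and entered the comparison. They were chosen by name, but with the difference between IRF8-GFP positive and negative cells already known, so every value of that difference below is a description and carries no test of the members.

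The RNA came from lymphoid-primed multipotent progenitors, or LMPP, early blood-forming cells of the mouse bone marrow that keep lymphoid and myeloid potential. All cells came from mice that carry a green fluorescent protein knock-in reporting IRF8, a transcription factor of dendritic cell and monocyte development. Both groups were sorted as Sca-1+, CD117+, CD34+ and CD135+ cells without lineage markers, IL-7R or CD150, and differed in the reporter. There were 2 arrays of IRF8-GFP(-) LMPP and 2 arrays of IRF8-GFP(+) LMPP. They are labelled exp1 and exp2 in each group and called replicates 1 and 2 here. Strain, age and whether animals were pooled are not given in the sources used here, nor is it stated that the 2 arrays of a group are separate animals, so the errors reflect how far these arrays differ and may be technical.

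Mitochondria hold their own ribosome, built from RNA encoded by mitochondrial DNA and from proteins that are all encoded in the nucleus, made in the cytosol and imported. This ribosome makes the few membrane proteins that mitochondrial DNA encodes, which are core parts of the respiratory chain and of ATP synthase. Its small subunit reads the messenger RNA and its large subunit joins amino acids. Some of its proteins have counterparts in bacterial ribosomes and others are additions found in mitochondria. Blood stem cells are known for low protein synthesis, and progenitors that leave quiescence rely more on mitochondrial respiration.

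Irf8 itself, which checks the labels, had log2 signals of 1.64 and 1.60 on the IRF8-GFP negative arrays and 5.13 and 5.22 on the positive arrays. All log2 signals here are relative to the 75th percentile of the same array. Of 59305 spots, 29631 to 33681 were well above background per array, with fewer in positive LMPP. With 4 arrays in all, their number sets the limit on precision. Slamf1 (CD150) did not exceed background on any of the 4 arrays, while the other gate genes had signal on all 4. Il7r, whose protein the sort excludes, measured -1.57 and -1.54 in negative and 0.86 and 0.83 in positive LMPP (5.26-fold higher). Ly6a (Sca-1) and Kit (CD117), for which both groups were sorted, were called lower in positive LMPP (log2 difference -0.96, SE 0.07, and -0.39, SE 0.06), and Cd34 (0.26, SE 0.06) and Flt3 (0.25, SE 0.06) higher. Among markers of other cells, the sums of the 4 tested of 5 monocyte and macrophage genes (2^log2 signal) were 7.62 to 7.72 in negative and 54.9 to 57.1 in positive LMPP, with 4 of 4 higher. For the 5 tested of 5 megakaryocyte genes the sums were 6.21 to 6.28 and 2.27 to 2.34, with 4 lower, and for the 5 tested of 6 erythroid genes they were 13.9 to 15.3 and 8.99 to 9.49, with 4 lower. Of B cell markers 3 of 6 were tested (sums of 10.3 to 10.9 and 13.4 to 13.9) and Ms4a1 and Ebf1 were at background on every array. Of T and NK markers 3 of 6 were tested (36.9 to 37.4 and 42.6 to 43.2) and Cd3g, Cd8a and Ncr1 were at background, as were Ltf, Ngp and Mmp8 among neutrophil markers (2 of 6 tested, sums of 0.657 to 0.703 and 0.274 to 0.373). The part of these cells in the members' values was not tested, and in bulk RNA more cells of a type and more RNA per cell cannot be told apart.

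Nearly the whole set of mitochondrial ribosomal protein genes was higher in IRF8-GFP positive LMPP. The log2 difference, positive minus negative, was above 0 for 77 of 77 tested members, with a median of 0.63 (1.55-fold) and a range from 0.03 to 1.0, except that Mrpl52 and Mrpl24 turned below 0 under other scalings of the arrays. A limma adjusted p under 0.05 as higher was reached by 75 members, where 38.5% of all 22362 tested genes were called higher and 21.4% lower. No member was called lower. Because the members were chosen with this comparison known, nothing is read from that count. For 75 members the lowest positive array exceeded the highest negative array, where this held for 52.4% of all genes. All 77 were well above background on all 4 arrays, so none entered the comparison through 1 group alone. The remaining gene, Mrpl21, did not exceed background on any of the 4 arrays (log2 signals of -5.74 and -5.82 in negative and -5.53 and -4.92 in positive LMPP) and has no difference here.

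**Figure D1:**
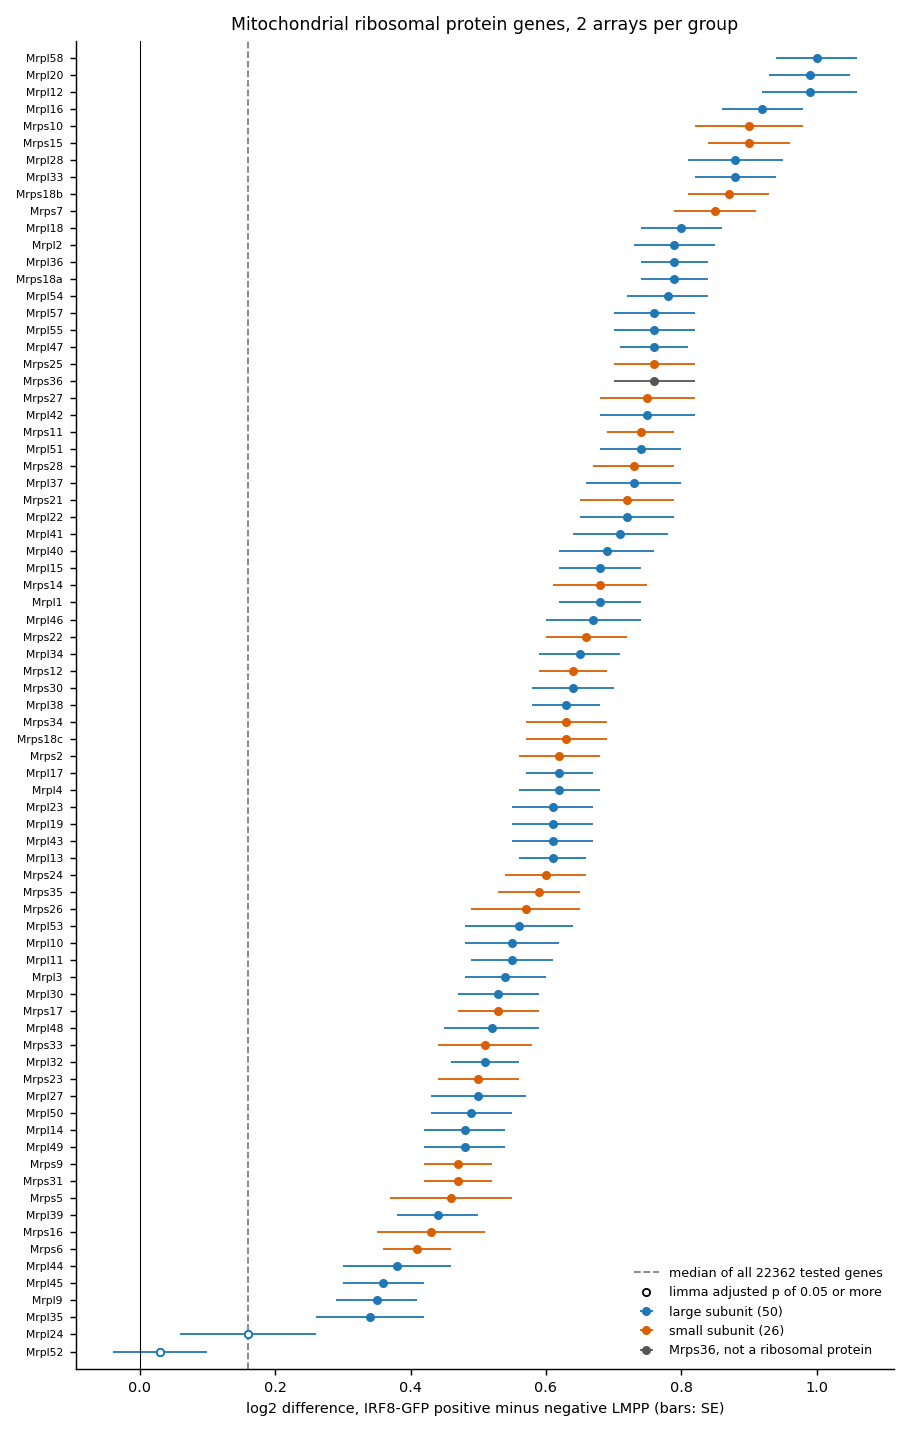
Log2 difference, positive minus negative LMPP (x axis), of the 77 tested mitochondrial ribosomal protein genes, with bars for the SE from limma on 2 arrays per group; blue marks the large subunit, orange the small subunit, open points the genes with an adjusted p of 0.05 or more and the dashed line the median of all 22362 tested genes. Most genes lie between 0.4 and 0.9, while Mrpl52 and Mrpl24, which turn below 0 under other scalings, lie at or left of the dashed line.

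The differences were small in fold and narrow in spread. Of the members, 50 were at least 1.5-fold higher and none reached 2-fold, although Mrpl58 came closest and its fold rounds to 2. A log2 difference of 0.5 or more was seen in 61 members, and 11 had 0.8 or more. The SD of the difference over the 77 members was 0.18, against standard errors of 0.05 to 0.10, so that neighbours in the order lay within error of each other while its ends did not. Replicates differed little: the median SD between arrays of a group was 0.02 in negative and 0.04 in positive LMPP, and the largest for any member was 0.16.

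The highest differences were led by Mrpl58, a protein of the central protuberance of the large subunit that also acts as a release factor for stalled ribosomes. Its log2 signal was 3.66 and 3.73 on the negative arrays and 4.73 and 4.67 on the positive arrays, which is a log2 difference of 1.0 (SE 0.06). Both positive arrays stood clear of both negative arrays. Mrpl12, which forms the flexible stalk that recruits translation factors, measured 4.66 and 4.79 in negative and 5.75 and 5.69 in positive LMPP (log2 difference 0.99, SE 0.07). Mrpl20, a large subunit protein with a bacterial counterpart, measured 4.85 and 4.79 against 5.82 and 5.79 (0.99, SE 0.06). The groups did not overlap for either gene.

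Mrpl16, a large subunit protein near the site where amino acids are joined, measured 3.52 and 3.51 in negative and 4.40 and 4.47 in positive LMPP (log2 difference 0.92, SE 0.06). Mrps10, in the head of the small subunit, measured 3.0 and 2.97 against 3.97 and 3.82 (0.90, SE 0.08). Mrps15, also of the small subunit, measured 2.71 and 2.74 against 3.60 and 3.64 (0.90, SE 0.06). In each of these the positive arrays were both high, and the gap was many times the distance between replicates. Mrpl28 measured 2.62 and 2.51 against 3.42 and 3.48 (0.88, SE 0.07), and Mrpl33 6.10 and 6.10 against 6.96 and 7.01 (0.88, SE 0.06). Both belong to the part of the large subunit that is shared with bacteria, and their groups lay apart as well.

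At the other end, Mrpl52 stayed level between the groups. This large subunit protein, a mitochondrial addition, measured 5.26 and 5.26 in negative LMPP and 5.23 and 5.35 in positive LMPP, so that the log2 difference was 0.03 (SE 0.07). Its groups overlapped. Under quantile normalization, spike-in scaling, cyclic loess and in the authors' deposited matrix values it was the 1 member called lower, at -0.38, -0.26, -0.37 and -0.39, where 24.4%, 35.5%, 27.1% and 24.5% of all genes were called lower. Mrpl24, which lies near the mouth of the exit tunnel, measured 5.09 and 5.22 against 5.21 and 5.42 (0.16, SE 0.10), also with overlap, and its sign turned under the same 4 scalings without a call. These 2 genes were not above the median difference of all tested genes, 0.16, and each rests on a single probe.

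Above them in the order stood Mrpl35 at -0.34 and -0.25 in negative and -0.03 and 0.11 in positive LMPP (log2 difference 0.34, SE 0.08), and Mrpl9 at 2.19 and 2.24 against 2.61 and 2.52 (0.35, SE 0.06). Mrpl45, which anchors the ribosome to the inner membrane, measured 3.49 and 3.54 against 3.85 and 3.91 (0.36, SE 0.06). The positive arrays were higher on this scaling, but by less than for most members. Mrpl44, a neighbour of the exit site, measured 2.41 and 2.47 against 2.75 and 2.89 (0.38, SE 0.08). Mrps6 measured 3.28 and 3.30 against 3.69 and 3.72 (0.41, SE 0.05), and Mrps16, another small subunit protein, 4.87 and 4.85 against 5.20 and 5.38 (0.43, SE 0.08). Mrpl9, Mrpl45, Mrpl44, Mrps6 and Mrps16 each lost the call under quantile normalization, cyclic loess, spike-in scaling and in the deposited matrix. With quantile normalization their differences were 0.13, 0.05, 0.15, 0.11 and 0.03. Mrpl35 lost it with spike-in scaling, at 0.04. Without negative replicate 1, and likewise without negative replicate 2, the call was lost for 6 members, Mrpl35, Mrpl9, Mrpl45, Mrpl44, Mrps16 and Mrps5, and for Mrpl35 also without positive replicate 2. The other 69 called members kept it without any single array. Of all genes, 21.3% and 21.5% were called higher without negative replicate 1 or 2, and 33.6% and 35.8% without positive replicate 1 or 2.

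**Figure D2:**
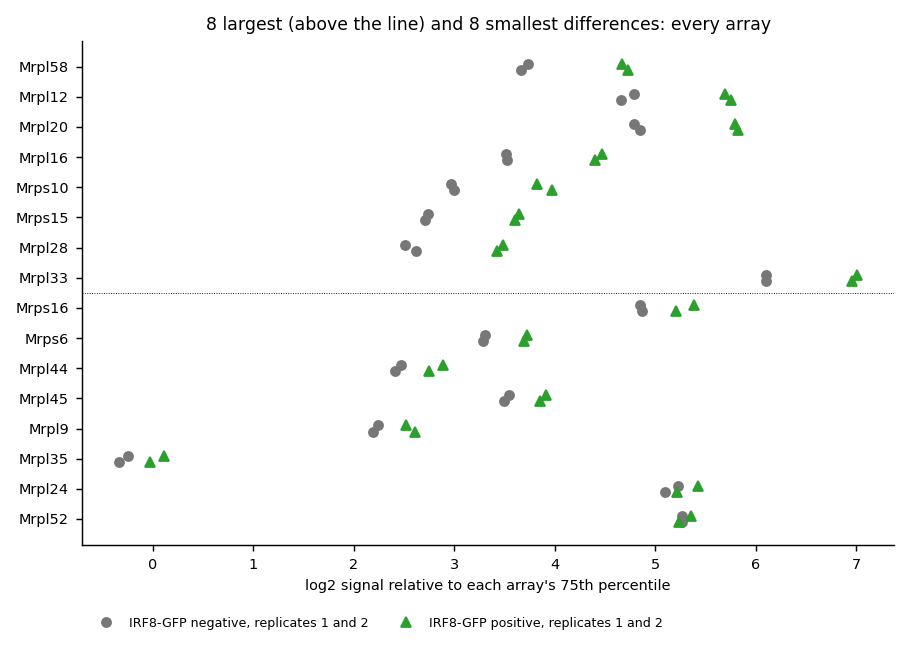
Log2 signal (x axis, scaled to the array's 75th percentile) on every array for the 8 members with the largest and the 8 with the smallest difference; grey circles are the 2 IRF8-GFP negative and green triangles the 2 positive arrays. Both positive arrays lie above both negative arrays in 14 of these 16 genes, which were picked by the size of the difference, and in 52.4% of all tested genes. The groups overlap for Mrpl24 and Mrpl52, whose direction depends on the scaling.

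The large and the small subunit had equal medians. The 50 tested genes of the large subunit, where Mrps30 and Mrps18a are placed by structure, had a median log2 difference of 0.63, with 48 higher. The 26 of the small subunit had 0.63, with 26 higher. Proteins with a bacterial counterpart (45 genes, median 0.63) and mitochondrial additions (31 genes, median 0.63) had equal medians as well. Mrps36 meets the naming rule although its product belongs to the 2-oxoglutarate dehydrogenase complex of the citrate cycle; it measured 2.95 and 2.98 against 3.71 and 3.73 (0.76, SE 0.06), inside the range of the ribosomal genes.

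Within the large subunit, the stalk and its base were not uniform: Mrpl12 had 0.99, while Mrpl10, which holds Mrpl12 on the ribosome, measured 1.49 and 1.57 against 2.13 and 2.02 (0.55, SE 0.07). Mrpl11, at the base of the stalk, measured 4.65 and 4.63 against 5.14 and 5.23 (0.55, SE 0.06). All 8 genes of the central protuberance were called higher, with a median of 0.68. Mrpl58 was the highest of them, followed by Mrpl18 (0.80, SE 0.06) and Mrpl55 (0.76, SE 0.06), and Mrpl27 was the lowest at 0.50 (SE 0.07). Of 6 genes around the exit site 5 were called higher (same background), with a median of 0.50. These were Mrpl47 (0.76, SE 0.05), Mrpl22 (0.72, SE 0.07), Mrpl23 (0.61, SE 0.06), Mrpl44 and Mrpl45, with Mrpl24 as the exception. Under quantile normalization, cyclic loess and in the deposited matrix Mrpl23 (0.14, 0.19 and 0.14), Mrpl44 and Mrpl45 were not called, which leaves 2 of 6 (background 27.1%, 23.7% and 27.0%). Under the same 3 settings Mrpl27 (0.18, 0.17 and 0.18) and Mrpl48 (0.17, 0.17 and 0.16) of the central protuberance and Mrpl11 (0.15, 0.17 and 0.15) were not called, nor was Mrpl10 with spike-in scaling (0.25).

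In the small subunit, Mrps12, which lines the decoding site, measured 4.39 and 4.38 in negative and 5.03 and 5.02 in positive LMPP (log2 difference 0.64, SE 0.05), with no overlap. Mrps7, an RNA-binding protein of the head, measured 3.79 and 3.75 against 4.65 and 4.6 (0.85, SE 0.06). The 3 paralogs of bacterial S18 sit at different places, Mrps18a in the large subunit and Mrps18b and Mrps18c in the small one. Mrps18b measured 4.08 and 4.03 against 4.93 and 4.93 (0.87, SE 0.06), Mrps18a 2.90 and 2.91 against 3.71 and 3.69 (0.79, SE 0.05), and Mrps18c 3.84 and 3.93 against 4.49 and 4.53 (0.63, SE 0.06). All 3 were higher in positive LMPP, and signals of different probes are not compared with each other as RNA levels.

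A second probe was available for 21 members, and in 19 both probes were higher in positive LMPP. The 2 probes of a gene differed by a median of 0.09 on the log2 difference, and by less than 0.2 in 14 genes. For Mrpl41, a large subunit protein, the brighter probe gave 0.71 and a dim one -0.58, the latter with signals of -0.76 and -0.87 in negative and -1.43 and -1.36 in positive LMPP. For Mrps25 the brighter probe gave 0.76 and the dimmer one -0.11. The brighter probe stands for a gene here; with the mean of a gene's probes Mrpl41 lost its call (background 37.9% higher), so no single direction can be given for its transcripts.

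Signal strength moved with the difference across the array as a whole. Of the members, 58 lay in the brightest 25% of all tested genes and 17 in the next 25%. Among the brightest 25%, 67.1% of genes were called higher and 7.85% lower, with a median log2 difference of 0.38, where the 58 members had 0.65 and 56 were called. Among the next 25%, 44.6% were called higher with a median of 0.19, where the 17 members had 0.62 and all 17 were called. Among the members themselves the difference was weakly related to signal (Pearson r = 0.12, Spearman rho = 0.14 over 77 genes that share the same 4 arrays). Without Mrpl24 and Mrpl52 the values were 0.25 and 0.21 over 75 genes. How far brightness contributes to the members' shift was not tested beyond these values and the scaling without a brightness trend below.

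**Figure D3:**
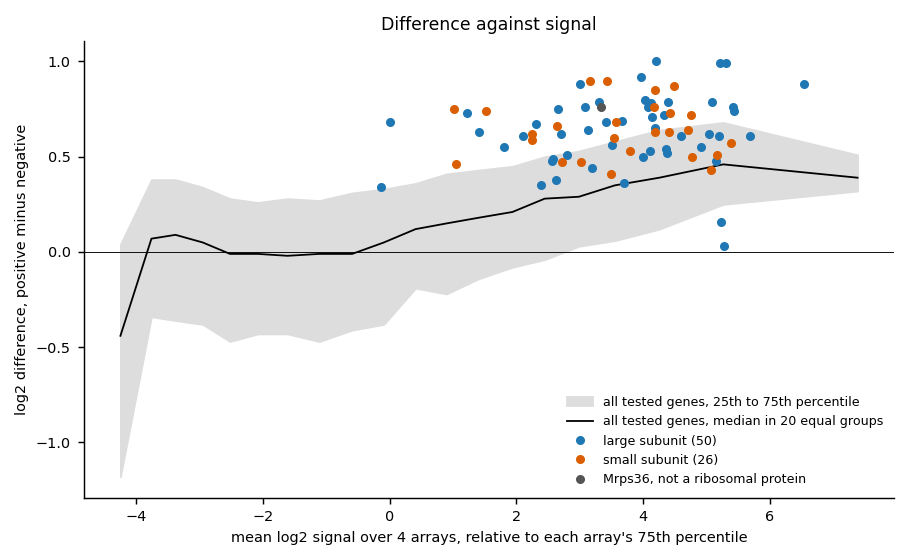
Log2 difference, positive minus negative (y axis), against the mean log2 signal over 4 arrays (x axis); the line and grey band are the median and the 25th to 75th percentiles of all tested genes in 20 groups of equal size, and points are the members by subunit. The line climbs over most of the signal range, and most members lie above it. Mrpl52 and Mrpl24, of unsettled direction, lie below it, while Mrps16 and Mrpl45 lie close to it.

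The size of the shift depended on how the arrays were scaled. The median of all tested genes was 0.16 with the main scaling and moved to 0.04 with quantile normalization and in the authors' deposited matrix values, to 0.00 with cyclic loess, which removes a trend with brightness, and to -0.13 with spike-in scaling. The members' median was 0.37, 0.36, 0.35 and 0.34 in that order, and stood above that of all genes by 0.32, 0.32, 0.35 and 0.47, against 0.47 with the main scaling. In these 4 settings 61, 61, 57 and 60 of 77 members were called higher, where 27.1%, 27.0%, 23.7% and 15.0% of all genes were, and 50 members were called in all 4. The difference stayed above 0 for 75 members in each of them, Mrpl52 and Mrpl24 being the exceptions.

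**Figure D4:**
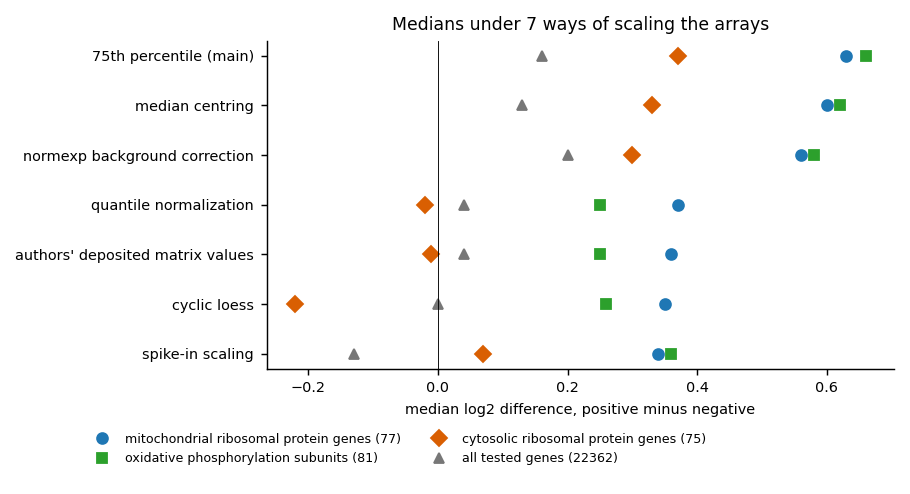
Median log2 difference, positive minus negative (x axis), under 7 ways of scaling the arrays (y axis) for the mitochondrial ribosomal protein genes, oxidative phosphorylation subunits, cytosolic ribosomal protein genes and all tested genes. The blue circles stay between 0.34 and 0.63, while the cytosolic ribosomal genes cross 0 with cyclic loess, quantile normalization and the deposited matrix.

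Compared with the 2 gene sets most like them, the members' values lay close to those of the respiratory chain and ATP synthase, whose core parts their ribosome makes. The 81 tested nuclear-encoded oxidative phosphorylation subunits had a median log2 difference of 0.66 with 79 called higher (background 38.5%, and 67.1% among the brightest 25%). Under quantile normalization and cyclic loess their medians were 0.25 and 0.26, below the members' 0.37 and 0.35, while with spike-in scaling it was 0.36 against 0.34. The 75 tested cytosolic ribosomal protein genes had a median of 0.37 with 45 called higher (same background). Their medians were -0.02, -0.22 and 0.07 under these 3 scalings, and their direction is therefore not settled. Their probes lay at a median brightness percentile of 99.3 against 85.6 for the members. These differences between sets were not tested, since genes on the same 4 arrays are not replicates.

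The 5 ribosomal subunits that carry other names went the same way. Gadd45gip1, of the large subunit, measured 3.74 and 3.70 in negative and 4.63 and 4.62 in positive LMPP (log2 difference 0.90, SE 0.06). Chchd1, of the small subunit, measured 5.45 and 5.43 against 6.28 and 6.36 (0.88, SE 0.06). The groups lay apart in both. Aurkaip1 (0.60, SE 0.05), Ptcd3 (0.51, SE 0.08) and Dap3 (0.40, SE 0.08), all of the small subunit, were called higher too, but each lost its call under quantile normalization, cyclic loess and the matrix values, where Dap3 turned to -0.02, -0.01 and -0.02. Ptcd3 and Dap3 lost it with spike-in scaling as well. Without negative replicate 1 the call was lost for Ptcd3 and Dap3, and for Dap3 also without negative replicate 2.

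Of the 13 translation factors that work with this ribosome, 7 were called higher and none lower, with a median log2 difference of 0.33. Over all tested genes 38.5% were called higher and 21.4% lower. Among the brightest 25% and the next 25%, 67.1% and 44.6% were called higher. Counts for this and the following lists are from the main scaling, and nothing is read from them. The elongation factor gene Tufm measured 3.55 and 3.59 in negative and 4.53 and 4.38 in positive LMPP (0.89, SE 0.08), and Gfm1, which moves the ribosome along the message, 3.22 and 3.24 against 4.06 and 4.16 (0.87, SE 0.06). Tsfm, which recharges Tufm, had 0.68 (SE 0.06). The initiation factor gene Mtif2 had -0.26 (SE 0.09) and was not called, although both positive arrays (6.96 and 6.86) lay below both negative arrays (7.25 and 7.08). The other initiation factor gene, Mtif3 (0.20, SE 0.11), was not called either.

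Of 24 tested assembly and ribosomal RNA modification genes 16 were called higher (background 38.5%) and none lower (background 21.4%), with a median of 0.35. Rcc1l measured 0.67 and 0.72 in negative and 1.46 and 1.55 in positive LMPP (0.81, SE 0.07). The helicase gene Ddx28 (0.70, SE 0.08), the small subunit assembly GTPase gene Eral1 (0.69, SE 0.08) and the ribosome-binding factor gene Rbfa (0.66, SE 0.06) followed. Nsun4, a methyltransferase of the ribosomal RNA, lay at -0.05 (SE 0.05) and Mterf4, its partner, at 0.09 (SE 0.09), neither of them called.

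Mitochondrial tRNA synthetases, which charge the tRNAs for this ribosome, were called higher in 13 of 16 tested genes and lower in 1. Their median was 0.42, and the background over all genes was 38.5% higher and 21.4% lower. Mars2 (0.91, SE 0.07) and Yars2 (0.83, SE 0.06) had the largest differences. Wars2, the tryptophan enzyme, was the 1 called lower, at -0.33 and -0.16 in negative and -0.58 and -0.56 in positive LMPP (log2 difference -0.32, SE 0.08). Of 18 genes that copy and transcribe mitochondrial DNA or handle its RNA, 12 were called higher and none lower (median 0.36, same background). The largest were Slirp (0.74, SE 0.07) and Lrpprc (0.70, SE 0.08), which bind RNA, the topoisomerase gene Top1mt (0.65, SE 0.08) and the RNA helicase gene Supv3l1 (0.63, SE 0.07). The RNA-processing genes Trmt10c (0.14, SE 0.06) and Hsd17b10 (0.10, SE 0.06) were not called. The DNA polymerase gene Polg (-0.03, SE 0.07) and its partner Polg2 (0.00, SE 0.06) were not called.

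**Figure D5:**
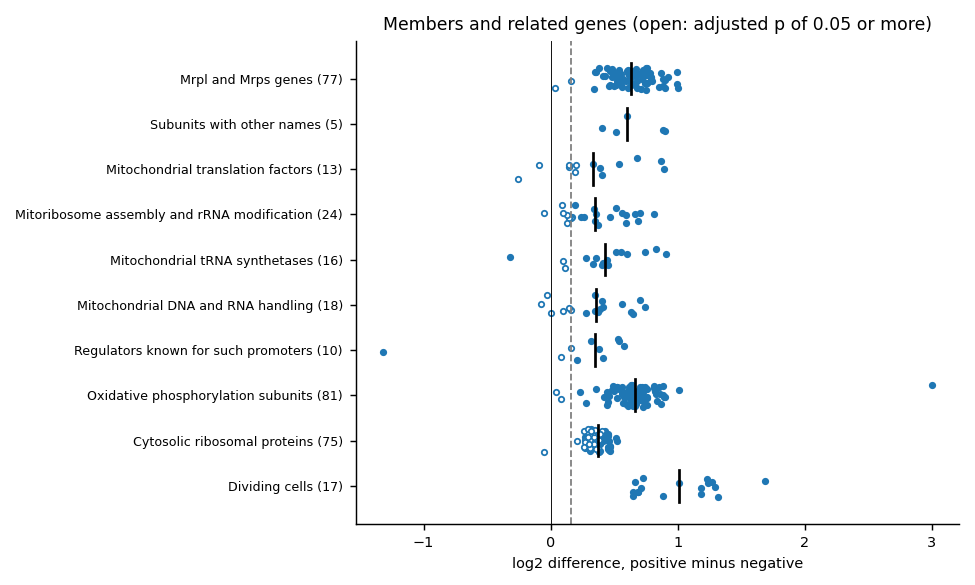
Log2 difference, positive minus negative (x axis), for each gene of the members and of 9 related sets, with the number tested in brackets; black bars are medians, the dashed line is the median of all tested genes and open points have a limma adjusted p of 0.05 or more. The members cluster between 0.3 and 1.0 with 2 open exceptions of unsettled direction, the factor sets spread down to and below 0, and the cytosolic ribosomal genes change sign with the scaling.

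Genes of dividing cells were higher alongside. All 17 of the list were called higher (background 38.5%), with a median log2 difference of 1.01. Their summed signal was 586 and 597 in negative and 1060 and 1030 in positive LMPP. Mki67, a marker of cycling cells, measured 5.55 and 5.57 against 6.58 and 6.56 (1.01, SE 0.05), and the mitotic kinase gene Cdk1 1.82 and 1.90 against 3.07 and 3.20 (1.27, SE 0.08). The part of cell division in the members' values was not tested.

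Among 10 regulators known for genes of mitochondrial biogenesis, 7 were called higher (background 38.5%) and 1 lower (background 21.4%). Myc, which drives growth and ribosome production, measured 3.49 and 3.47 in negative and 4.06 and 4.06 in positive LMPP (0.58, SE 0.05). Hcfc1 (0.54, SE 0.07) and Nrf1 (0.53, SE 0.09), the latter a transcription factor of many nuclear genes for mitochondria, were also called, both losing the call without negative replicate 1. Hcfc1 also lost it with quantile normalization, cyclic loess and the deposited matrix, and Nrf1 with spike-in scaling. Esrra (0.41, SE 0.06), Yy1 (0.38, SE 0.08), Pprc1 (0.32, SE 0.08) and Gabpa (0.21, SE 0.06) were called higher with the main scaling. Gabpb1 (0.08, SE 0.07) and Ppargc1b (0.16, SE 0.06) were not called, where the median of all tested genes was 0.16. Ppargc1a, the coactivator PGC-1 alpha, went the other way, at -2.06 and -2.04 against -3.51 and -3.24 (log2 difference -1.32, SE 0.11). With normexp background correction the difference of this dim gene was -0.48, and it was called lower there too.

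Promoter sequence was set beside the values as a description, and shared regulation of the members was not tested. RefSeq windows on GRCm38.p6, from 250 bases before to 50 after an annotated start, were matched by symbol for 68 of the 77 tested members (74 windows). The array design cites another build, and no array value uses these coordinates. On both strands, 25 of 74 windows (33.8%) held the ETS-type motif CCGGAAG, bound by GABP among others, against 8.86% of all 32851 windows and 21.4% of those of other genes among the brightest 25%. The NRF1 motif, GCGC and TGCGC with 1 base of any kind between them, was in 17.6% of the members' windows, 4.6% of all and 11.8% of those of the brightest other genes. The YY1 motif AAGATGGC was in 16.2%, 2.75% and 5.33%. The ETS-IRF motif, GGAA and GAAA with 2 bases of any kind between them, is a composite form that IRF8 binds with a partner. It was in 3 windows (4.05%), which belong to 2 of the 68 members, against 2.72% of all and 1.88% of the brightest other genes' windows. It can overlap the interferon-response form with GAAA in place of GGAA, also in 3 windows (4.05%), against 3.44% and 2.79%. The TATAAA box was in 6.76%, against 13.6% of all and 6.84% of the brightest other genes' windows. The short motif CCAAT was in 40.5%, against 37.4% of all and 38% of the brightest other genes' windows. A match is a description of letters and not a binding site.

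At least 1 of the ETS, NRF1 and YY1 motifs was in a window of 42 of the 68 members, and 26 had none. The log2 differences of members with and without a motif overlapped widely. The 25 with the ETS motif had a median of 0.64 (0.03 to 1.0) and the 43 without it 0.64 (0.16 to 0.99). The 13 with the NRF1 motif had 0.51 (0.35 to 0.99) and the 55 without 0.67 (0.03 to 1.0). For YY1 the medians were 0.74 with (12 members) and 0.62 without (56). The motif CACGTG, scanned as well, gave medians of 0.79 with (5 members) and 0.62 without (63). It was in 9.46% of the members' windows, 7.15% of all and 11.6% of those of the brightest other genes.

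The 250 bases before the start are shown for the members at both ends of the order, with matches to the ETS, NRF1, YY1 and CCAAT motifs in capitals. Mrpl58 (chr11:115403502-115403751, plus strand) has 1 ETS match in the printed stretch and Mrpl12 (chr11:120484387-120484636, plus strand) has 1 NRF1 match. Mrpl24 (chr3:87919294-87919543, plus strand) has none, and Mrpl52 (chr14:54426659-54426908, plus strand) has 1 ETS match on the opposite strand. So the gene with the largest difference and the one with the smallest both carry an ETS match.
Mrpl58: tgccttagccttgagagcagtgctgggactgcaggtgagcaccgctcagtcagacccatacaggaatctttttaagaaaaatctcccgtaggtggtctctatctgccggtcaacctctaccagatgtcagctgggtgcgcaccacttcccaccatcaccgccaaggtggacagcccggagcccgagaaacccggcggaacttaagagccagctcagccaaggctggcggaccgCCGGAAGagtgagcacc
Mrpl12: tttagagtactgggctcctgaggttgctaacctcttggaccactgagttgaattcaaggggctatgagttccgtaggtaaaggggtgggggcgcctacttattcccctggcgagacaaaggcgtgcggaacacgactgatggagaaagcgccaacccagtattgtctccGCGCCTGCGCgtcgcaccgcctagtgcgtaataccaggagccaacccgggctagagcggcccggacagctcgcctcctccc
Mrpl24: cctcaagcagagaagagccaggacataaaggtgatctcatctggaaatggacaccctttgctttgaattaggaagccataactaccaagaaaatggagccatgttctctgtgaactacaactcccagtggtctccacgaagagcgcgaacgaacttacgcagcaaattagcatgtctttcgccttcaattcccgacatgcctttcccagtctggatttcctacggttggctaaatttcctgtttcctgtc
Mrpl52: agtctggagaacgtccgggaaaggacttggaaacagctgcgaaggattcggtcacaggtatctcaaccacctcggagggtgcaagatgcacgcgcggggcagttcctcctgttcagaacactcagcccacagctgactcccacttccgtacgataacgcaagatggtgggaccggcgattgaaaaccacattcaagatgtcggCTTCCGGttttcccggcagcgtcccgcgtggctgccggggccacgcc

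Genes that start close to a member on the opposite strand were described as well, with values from the same 4 arrays. For 25 members the start of another gene lay within 1000 bases upstream on the opposite strand, so that the pair is transcribed head to head. In 1 pair, Mrpl46 and Mrps11, both genes are members; their starts lie 42 bases apart and their log2 differences were 0.67 (SE 0.07) and 0.74 (SE 0.05). Of the 21 tested partners that are no members, 14 were called higher (background 38.5%) and 4 lower (background 21.4%), with a median of 0.37 and a range from -0.66 to 0.96. Partners thus included genes called in either direction. Among the brightest 25% of all genes 67.1% were called higher, with a median of 0.38, and the brightness of the partners was not examined. The partners' calls are those of the main scaling, and nothing is read from their count. The 25 members had differences above 0, although for Mrpl41 this holds only for the brighter of its probes.

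Among the 14 partners called higher, Sars2, the mitochondrial seryl-tRNA synthetase beside Mrps12, had 0.60, Ndufb5, a complex I subunit beside Mrpl47, 0.67, Ptcd2 beside Mrps27 0.47, and Twnk, the mitochondrial DNA helicase beside Mrpl43, 0.37. Ska3, a kinetochore gene beside Mrpl57, had 0.96 and Ncapd2, a condensin gene beside Mrpl51, 0.84. Eme1, an endonuclease subunit beside Mrpl27, had 0.89, Tcp1, a chaperonin subunit beside Mrpl18, 0.84, and Psma2, a proteasome subunit beside Mrpl32, 0.73. The others were Cyb5rl beside Mrpl37 (0.70), Hira beside Mrpl40 (0.53), Gga3 beside Mrps7 (0.36), Fau beside Mrpl49 (0.32) and Helq beside Mrps18c (0.26). In the other direction, Tmem63b beside Mrpl14 had -0.66 while Mrpl14 had 0.48, Klc4 beside Mrpl2 -0.50 while Mrpl2 had 0.79, Pnpla7 beside Mrpl41 -0.25, and Zfp189 beside Mrpl50 -0.20.

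The bases between the starts of 3 such pairs are printed as examples on the member's strand, with the same motifs in capitals. Over all pairs the starts lay from 8 bases (Mrps26) to 935 bases (Mrpl41) apart. Mrps11 with Mrpl46 (chr7:78783090-78783130, plus strand) has 41 bases with no match, Mrps12 with Sars2 (chr7:28741822-28741967, minus strand) 146 bases with 3 CCAAT matches, and Mrpl43 with Twnk (chr19:45006443-45006557, minus strand) 115 bases with 2 ETS matches.
Mrps11 and Mrpl46: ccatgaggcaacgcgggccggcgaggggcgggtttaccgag
Mrps12 and Sars2: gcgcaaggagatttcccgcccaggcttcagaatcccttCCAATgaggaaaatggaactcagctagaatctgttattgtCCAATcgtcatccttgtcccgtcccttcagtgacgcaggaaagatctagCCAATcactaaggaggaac
Mrpl43 and Twnk: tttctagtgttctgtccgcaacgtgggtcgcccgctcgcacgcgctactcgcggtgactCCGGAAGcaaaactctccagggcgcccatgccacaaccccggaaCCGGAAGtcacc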

How the data were processed

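RNA of 2 IRF8-GFP negative and 2 positive LMPP samples was hybridized to 4 one-colour arrays. Per the file headers, the deposited intensity values are processed signals of Agilent Feature Extraction 10.7.3.1, extracted array by array; the headers do not spell out its background and trend steps. The authors' deposited matrix holds linear intensity that was quantile normalized, judging from its columns, which share their sorted values; other steps are not stated, and within each array its order matches the scanner values (Spearman correlation 1).

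Control and outlier spots were left out and 12 of 55681 probes dropped. Spots of a probe were averaged, taken to log2 and scaled to the array's 75th percentile. A probe was kept if at least 0.5 of its spots were well above background on each array of a group, in either group (30478 probes). RefSeq accessions named 26756 of 55669 probes. The brightest kept probe stood for a gene. limma 3.58.1 in R 4.3.3 (lmFit, eBayes, no block) was fitted to all 22362 genes, for positive minus negative LMPP, with two-sided p-values adjusted by Benjamini-Hochberg and called under 0.05. With 2 arrays a group, the smallest p of an exact permutation test is 0.333. The fit was tested on simulated data.

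The members, lists, alternatives and the rule for named genes (8 highest and 8 lowest members, members by fixed role, members of uncertain sign, and the largest called genes of each list) were chosen with earlier results of these data known. Names of genes were also picked from the head-to-head pairs after their values were seen. So were the remaining regulators and a few list genes that were not called. The slide and scan are the same for every array, per the file headers, so neither gives a batch. No protein sequences were used here.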

Additional observations from a re-analysis of the deposited data

How the results depend on the processing

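The count of members called higher stayed within 1.5 times of 75 under all 17 alternatives (57 with cyclic loess to 75), and 49 members kept their call under every one of the 15 that changed the fit or the values. Without single arrays it was 69 to 75, with none called lower and a median log2 difference of 0.63 to 0.64. The members' median moved to 0.37 with quantile normalization, 0.36 in the deposited matrix, 0.35 with cyclic loess, 0.34 with spike-in scaling and 0.56 with normexp background correction, and 1 member was called lower under each of the first 4. That member, Mrpl52, was at -0.38, -0.39, -0.37 and -0.26 there, at -0.03 with normexp, and at 0 with median centring, just below zero before rounding; without single arrays it ran from -0.03 (without positive replicate 2) to 0.1. Mrpl24 turned to -0.25, -0.25, -0.23 and -0.13 under those 4 scalings. Dap3 turned to -0.02 with quantile normalization and in the matrix, and to -0.01 with cyclic loess. The cause was not tested.

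Over all genes the calls were 8611 higher and 4779 lower. Quantile normalization gave 6059 and 5466, the matrix 6035 and 5487, cyclic loess 5303 and 6060, and spike-in scaling (5 bright E1A control probes) 3344 and 7939. Without negative replicate 1 they were 4760 and 2852 and without negative replicate 2, 4808 and 2915. With no filter on dim probes there were 14564 and 4372 of 37140 genes, and at an adjusted p of 0.01 there were 5002 and 2859.

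With the replicate block the members' median was 0.63 and no member's call changed, while 9094 and 4852 of all genes were called. The labels carry exp1 and exp2 in both groups but do not say that equal numbers belong together. The deviations of same-numbered arrays correlated by 0.0971 over all genes and by 0.152 over the members. Signal over background limits dim genes, here Mrpl21 alone among the members.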
